A study of Mus musculus with 9 samples.

Results

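The genes described here encode the carriers of the inner mitochondrial membrane and the machinery that imports proteins into mitochondria. They were every gene with a probe set whose only annotated symbol was Slc25a followed by a number, or a symbol beginning with Timm or Tomm. This gave 53 of 14860 genes, namely 39 Slc25a, 10 Timm and 4 Tomm genes, each measured by 1 probe set. Another 7 probe sets that shared such a symbol with a second symbol were left out. Slc25a5, Slc25a31, Tomm20, Tomm22, Tomm40, Timm8a1, Timm10, Timm13 and Timm23, had no probe set of their own in the annotation and were not analysed here. Perigonadal white fat of mice aged 4 months was profiled on 9 arrays, with 3 arrays from wild-type mice (wt), 3 from G609G/G609G mice and 3 from LCS/LCS mice. G609G is known as a Lmna allele that yields progerin, the truncated lamin A of Hutchinson-Gilford progeria. LCS is known as a Lmna allele that yields lamin C without lamin A. Both mutant groups were homozygous, no group received a treatment, and the labels name no further allele, strain or sex. The tissue was ground whole, so the values cover all cells of the depot. The series calls its replicates biological, but no label ties an array to an animal, so a p-value reflects the spread among these 9 arrays and no more.

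Mitochondria import nearly all of their proteins. Precursors enter through the TOM complex of the outer membrane. The TIM23 complex then passes proteins with a cleavable presequence to the matrix, pulled by an Hsp70 motor, while small Tim chaperones hand the multi-spanning carriers to the TIM22 complex for insertion into the inner membrane. The SLC25 carriers are the main clients of that second route, and they exchange nucleotides, phosphate, carboxylates, amino acids, acylcarnitines and cofactors between cytosol and matrix. In white fat, the export of citrate and the entry of dicarboxylates are known for feeding fatty acid synthesis and glyceroneogenesis.

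The values were log2 signals per probe set, and a change of 1 is a doubling. Genes were called with limma at an adjusted p of 0.05 or less, on the values as deposited, with quantile normalization, or with each array centred on its median, referred to as the 3 scalings. The scaling mattered because the array medians over all probe sets lay at 5.94 to 6.01 in G609G/G609G, 6.355 to 6.45 in wt and 6.31 to 6.37 in LCS/LCS. The median change of all genes in G609G/G609G against wt was -0.28 as deposited, while quantile normalization gave 0.02 and median centring 0.14. The adipocyte marker Adipoq, which encodes adiponectin, was bright in every genotype, with group means of 13.13 (wt), 13.16 (LCS/LCS) and 12.31 (G609G/G609G). Not every adipocyte marker was: Lep, which encodes leptin, had means of 11.25 (wt), 12.37 (LCS/LCS) and 5.32 (G609G/G609G).

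Markers of neighbouring tissues and of other cell types moved with genotype. All 9 measured of 12 skeletal muscle markers were called higher in G609G/G609G than in wt under all 3 scalings, with a median change of 6.44. Their summed signal was 15.14 to 15.19 in G609G/G609G, 9.70 to 9.86 in wt and 11.00 to 11.03 in LCS/LCS (log2 of the linear sum). Of 11 measured of 12 epididymis markers, 10 were called lower in G609G/G609G, and their summed signal was 12.58 to 12.64 against 15.73 to 15.76 in wt and 15.81 to 15.83 in LCS/LCS. All 13 measured of 14 testis and germ cell markers were called lower in both mutants as deposited, and their summed signal was 13.26 to 13.39 for wt, 10.02 to 10.16 for LCS/LCS and 12.21 to 12.25 for G609G/G609G. The white adipocyte sum was 14.58 to 14.61 in G609G/G609G and 15.29 to 15.30 in wt, with 6 of 7 measured markers of 9 called lower as deposited and 4 under all 3 scalings. The macrophage sum, over 6 measured of 7 markers, was 11.91 to 12.04 for wt, 12.22 to 12.30 for LCS/LCS and 10.65 to 10.83 for G609G/G609G, with 4 markers lower in G609G/G609G and 4 higher in LCS/LCS than in wt under all 3 scalings. The sum of the 6 fibroblast and progenitor markers was 13.98 to 14.00 for wt, 14.11 to 14.13 for LCS/LCS and 13.53 to 13.55 for G609G/G609G, with 5 lower in G609G/G609G and 4 higher in LCS/LCS. The sum of the 6 brown adipocyte markers was 10.02 to 10.14 for wt, 9.92 to 9.99 for LCS/LCS and 11.88 to 11.91 for G609G/G609G, with 4 higher and 1 lower in G609G/G609G and 3 lower in LCS/LCS. The sum of the 5 endothelial markers was 11.86 to 12.00 for wt, 12.24 to 12.28 for LCS/LCS and 11.90 to 11.98 for G609G/G609G, with 4 higher in LCS/LCS and 2 in G609G/G609G. All 3 measured of 6 slow and cardiac-type muscle markers were higher in G609G/G609G, where their sum was 7.001 to 7.62 against 5.41 to 5.59 for wt and 5.47 to 5.58 for LCS/LCS. No marker had a value of 0, since log2 signals have no zero. The part of these tissues in the results below was not tested, and in whole tissue fewer cells of a type and less RNA per cell cannot be told apart.

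The first comparison, G609G/G609G against wt, asked which carriers and import components differ in fat of mice with the progeria allele. Carriers moved in both directions and by large amounts: the pyrimidine nucleotide carrier Slc25a33 rose 3.98-fold, and the calcium-regulated ATP-Mg carrier Slc25a25 rose 3.27-fold. The dicarboxylate carrier Slc25a10 fell 3.57-fold, and all 4 carboxylate carriers fell under all 3 scalings. Changes of the Timm and Tomm genes ran from -1.04 to 0.31 as deposited, and those of the carriers from -2.05 to 1.99. As deposited, 10 of 53 genes (18.9%) were called higher and 27 (50.9%) lower, where 10.5% of all genes were called higher and 53.5% lower, 64.0% together. After quantile normalization 22 were called higher (41.5%) and 15 lower (28.3%), where all genes gave 28.5% and 29.5%. After median centring 22 were higher (41.5%) and 16 lower (30.2%), against 43.9% and 27.6% of all genes. Under all 3 scalings, 10 genes (18.9%) were higher and 15 (28.3%) lower, beside 10.2% and 25.5% of all genes. The share called lower was thus near that of all genes under each scaling. The median change of the 53 genes was -0.29 as deposited but 0.11 with quantile normalization and 0.13 with median centring, so its direction depended on the scaling. The groups did not overlap for 38 of the 53 genes (71.7%), and for 69.1% of all genes.

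**Figure D1:**
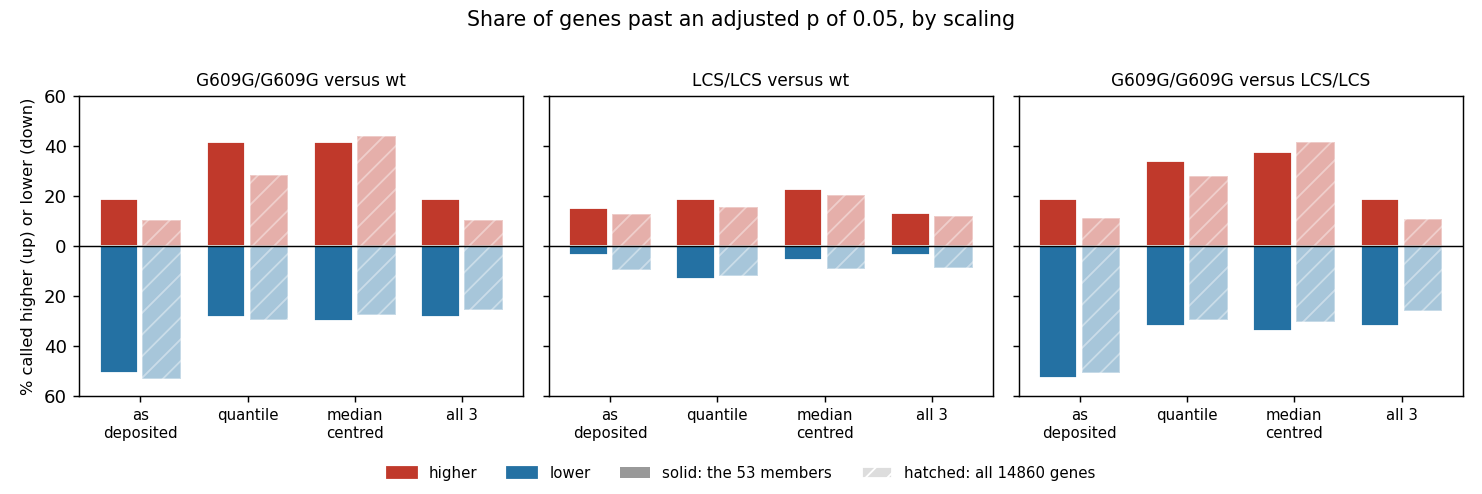
Share of genes called higher (red, upwards) or lower (blue, downwards), in percent, under each of the 3 scalings and under all 3 together, with solid bars for the 53 carrier and import genes and hatched bars for all 14860 genes. In G609G/G609G against wt, 50.9% of the 53 genes were called lower as deposited and 28.3% after quantile normalization, while all genes went from 53.5% to 29.5%.

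**Figure D2:**
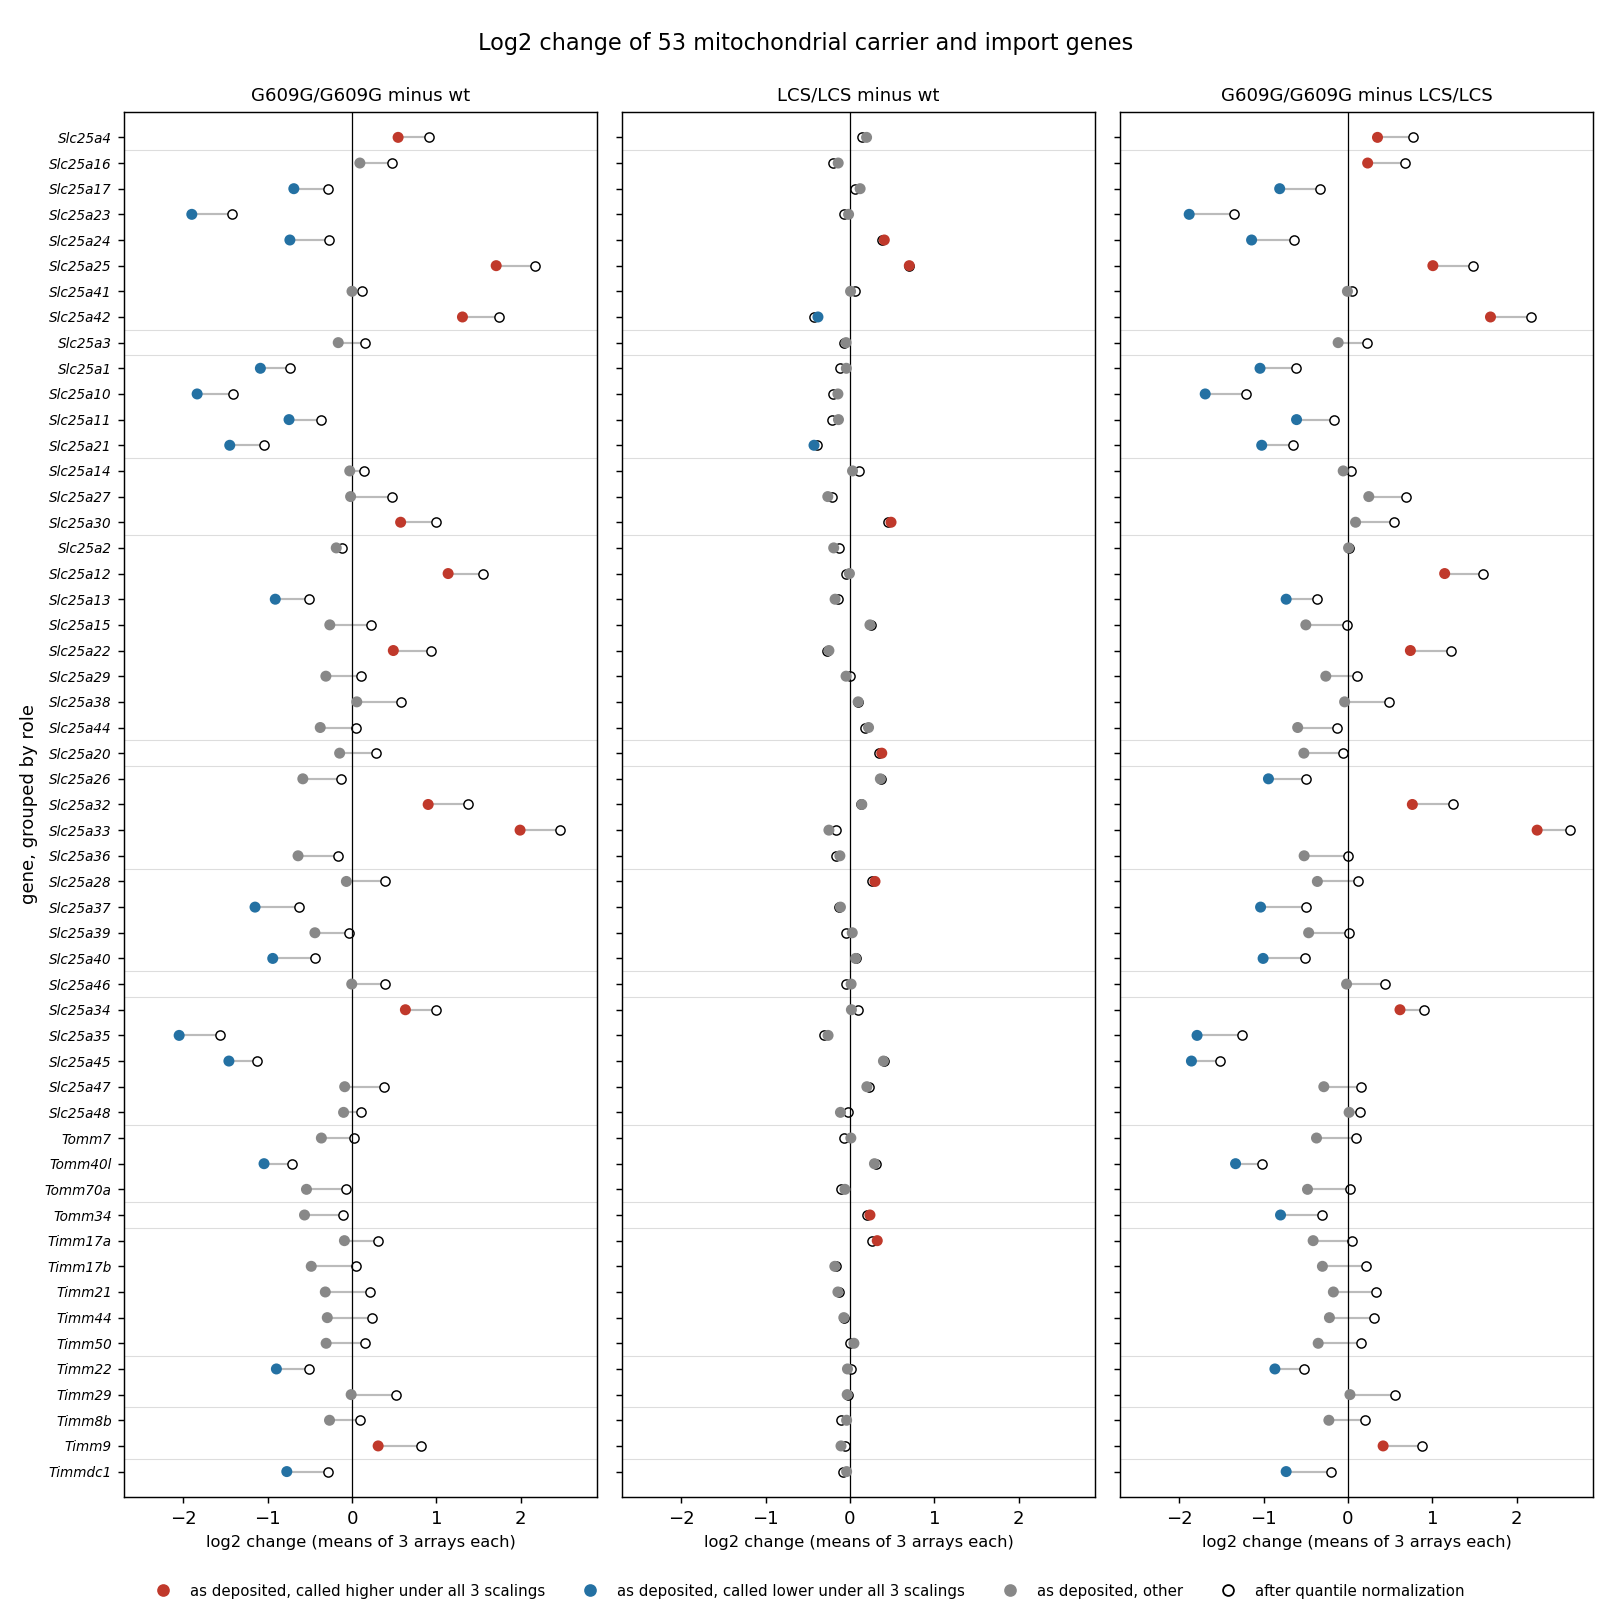
Log2 change of each of the 53 genes in the 3 comparisons, with genes grouped by role from top to bottom; filled circles are values as deposited (red or blue where called higher or lower under all 3 scalings, grey otherwise) and open circles are values after quantile normalization. In both comparisons of G609G/G609G the open circles lie to the right of the filled ones; in LCS/LCS against wt the 2 nearly coincide and the changes run from -0.43 to 0.70 as deposited.

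Among carriers of nucleotides and cofactors, Slc25a33 and Slc25a32 rose under all 3 scalings. Slc25a33, which brings pyrimidine nucleotides into mitochondria, read 5.99, 6.03 and 6.15 on the wt arrays, 7.84, 7.95 and 8.36 in G609G/G609G and 5.81, 5.83 and 5.78 in LCS/LCS. All 3 G609G/G609G arrays lay more than 1 log2 unit above every other array. Its wt and LCS/LCS signals lay below the medians of their arrays, where a low signal may be background. The increase over wt was 1.99 ± 0.125 (log2, SE; adjusted p = 4.03e-06), the largest among the 53 genes. Slc25a32, a carrier linked to folate and FAD, read 7.78, 7.95 and 7.94 in wt, 8.72, 8.70 and 8.96 in G609G/G609G and 8.03, 8.02 and 8.04 in LCS/LCS, without overlap between G609G/G609G and the other groups. It rose by 0.90 ± 0.083 (SE; adjusted p = 3.37e-05). Slc25a36, the second pyrimidine nucleotide carrier, did not follow Slc25a33. Its change was -0.64 ± 0.208 (SE; adjusted p = 0.0309) as deposited and -0.17 after quantile normalization, where it was not called. Its arrays overlapped, at 8.26 to 8.87 in wt and 7.57 to 8.28 in G609G/G609G. The S-adenosylmethionine carrier Slc25a26 read 6.68, 6.70 and 6.65 in wt, 6.17, 6.21 and 5.90 in G609G/G609G and 6.99, 7.11 and 7.01 in LCS/LCS. Its change of -0.58 in G609G/G609G passed the test as deposited (adjusted p = 0.000543) but not under the other scalings.

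Of 7 carriers of ATP-Mg, phosphate and coenzyme A, 2 rose and 3 fell under all 3 scalings. The shares of all genes were 10.2% and 25.5%. Slc25a25, Slc25a24 and Slc25a23 are calcium-regulated carriers that exchange ATP-Mg for phosphate and so set the adenine nucleotide pool of the matrix. Slc25a25 read 6.88, 6.92 and 7.04 in wt, 8.62, 8.56 and 8.79 in G609G/G609G and 7.65, 7.65 and 7.65 in LCS/LCS, so that the 3 genotypes formed separate groups. It rose in G609G/G609G by 1.71 ± 0.073 (SE; adjusted p = 5.01e-07). Slc25a23 read 9.41, 9.31 and 9.49 in wt, 7.41, 7.44 and 7.66 in G609G/G609G and 9.42, 9.35 and 9.39 in LCS/LCS. It fell by 1.90 (SE 0.080; adjusted p = 4.82e-07), and the wt and LCS/LCS arrays lay together. Slc25a24 read 8.60, 8.64 and 8.70 in wt, 7.71, 7.85 and 8.17 in G609G/G609G and 9.13, 8.98 and 9.05 in LCS/LCS. Its change was -0.74 ± 0.111 (SE; adjusted p = 0.000646), with all G609G/G609G arrays below all others. Slc25a42, which carries coenzyme A into the matrix, read 8.43, 8.45 and 8.45 in wt, 9.66, 9.69 and 9.91 in G609G/G609G and 8.09, 8.04 and 8.06 in LCS/LCS. It rose by 1.31 ± 0.071 (SE; adjusted p = 1.81e-06), and again no 2 genotypes overlapped. Slc25a17, a peroxisomal carrier of cofactors, fell by 0.69 as deposited and was called under all 3 scalings. Slc25a16 changed by 0.09 and Slc25a41 by 0.00, and neither passed the test as deposited. Slc25a16 was called higher with quantile normalization (0.47) and median centring (0.52), and Slc25a41 with median centring only (0.425). Slc25a41 was dim, below the array median on all 9 arrays.

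The 4 carboxylate carriers all fell under all 3 scalings, where 25.5% of all genes were called lower. Slc25a10, the dicarboxylate carrier, is abundant in white fat and exchanges malate and succinate for phosphate. Slc25a10 read 9.83, 9.83 and 9.96 in wt, 8.00, 8.01 and 8.10 in G609G/G609G and 9.78, 9.70 and 9.71 in LCS/LCS. The G609G/G609G arrays stood apart from both other groups, with a change of -1.84 ± 0.060 (SE; adjusted p = 1.24e-07). Slc25a1, which exports citrate for cytosolic acetyl coenzyme A, read 11.17, 11.21 and 11.29 in wt, 10.17, 10.07 and 10.17 in G609G/G609G and 11.22, 11.14 and 11.18 in LCS/LCS. Its change was -1.09 ± 0.057 (SE; adjusted p = 1.52e-06), 2.12-fold lower. Slc25a21, a carrier of oxodicarboxylates from lysine and tryptophan breakdown, read 7.05, 7.16 and 7.42 in wt, 5.70, 5.72 and 5.86 in G609G/G609G and 6.89, 6.63 and 6.83 in LCS/LCS. It changed by -1.45 ± 0.110 (SE; adjusted p = 1.2e-05), and the 3 genotypes did not overlap. Slc25a11, the oxoglutarate-malate carrier of the malate-aspartate shuttle, read 10.63, 10.57 and 10.66 in wt, 9.85, 9.84 and 9.93 in G609G/G609G and 10.49, 10.45 and 10.51 in LCS/LCS. Its change of -0.75 ± 0.052 (SE; adjusted p = 7.3e-06) as deposited was -0.37 after quantile normalization. On the same arrays the white adipocyte sum was lower and the skeletal muscle sum higher, as given above, and their part in the fall was not tested.

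Promoter windows are shown for 2 carriers that rose and 2 that fell, because these genes moved far and in opposite directions. They are the largest changes held under all 3 scalings among genes with 1 RefSeq start and a window outside the gene. Each line gives 250 bases before the start from RefSeq's mouse assembly GRCm38.p6, on the strand of the gene, 5′ to 3′, and capitals mark every match to a searched motif on either strand. Slc25a33 lies at chr4:149774268-149774517, minus strand, Slc25a42 at chr8:70212282-70212531, minus strand, Slc25a10 at chr11:120491587-120491836, plus strand, and Slc25a1 at chr16:17928220-17928469, minus strand.
Slc25a33: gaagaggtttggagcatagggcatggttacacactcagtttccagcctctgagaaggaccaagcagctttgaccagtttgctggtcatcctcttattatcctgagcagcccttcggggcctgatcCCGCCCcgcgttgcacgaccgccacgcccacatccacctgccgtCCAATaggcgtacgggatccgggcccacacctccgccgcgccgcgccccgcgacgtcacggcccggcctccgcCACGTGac
Slc25a42: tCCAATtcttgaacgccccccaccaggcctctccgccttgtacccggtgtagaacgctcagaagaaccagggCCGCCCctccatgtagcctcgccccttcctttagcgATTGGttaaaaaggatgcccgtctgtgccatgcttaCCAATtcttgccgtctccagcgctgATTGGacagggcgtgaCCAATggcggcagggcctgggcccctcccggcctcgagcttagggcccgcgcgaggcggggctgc
Slc25a10: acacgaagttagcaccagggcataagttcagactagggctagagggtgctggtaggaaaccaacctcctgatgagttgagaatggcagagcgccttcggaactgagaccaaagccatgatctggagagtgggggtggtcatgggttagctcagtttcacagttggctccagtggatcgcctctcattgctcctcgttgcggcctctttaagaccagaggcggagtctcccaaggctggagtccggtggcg
Slc25a1: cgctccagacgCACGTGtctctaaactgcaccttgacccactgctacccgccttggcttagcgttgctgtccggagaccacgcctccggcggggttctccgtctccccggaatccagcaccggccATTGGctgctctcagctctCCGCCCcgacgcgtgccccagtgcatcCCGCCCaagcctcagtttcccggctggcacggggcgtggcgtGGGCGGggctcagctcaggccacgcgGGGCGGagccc

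The search covered the GC box GGGCGG, the CCAAT box CCAAT, the E-box CACGTG, the cAMP response element TGACGTCA, the oestrogen-related receptor element AAGGTCA and the nuclear respiratory factor 1 palindrome, which is GCGCA followed by TGCGC, each on both strands. No 2 of the marked matches overlap. The Slc25a33 window held 1 GC box, 1 CCAAT box and 1 E-box, the last close to the start. Slc25a42 held 1 GC box and 5 CCAAT boxes, and Slc25a1 held 4 GC boxes, 1 CCAAT box and 1 E-box. None of these letters occurred in the Slc25a10 window. Of the 53 genes, 41 had a window in the table, with 52 windows in all. The GC box occurred in 67.3% of them and in 32.7% of all 32851 windows, the CCAAT box in 46.2% and 33.8%, and the E-box in 15.4% and 6.02%. The cAMP response element occurred in 3.85% and 1.55%, the oestrogen-related receptor element in 3.85% and 4.08%, and the palindrome in 0.00% and 0.782%. A match describes these letters in these windows and shows no binding.

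**Figure D3:**
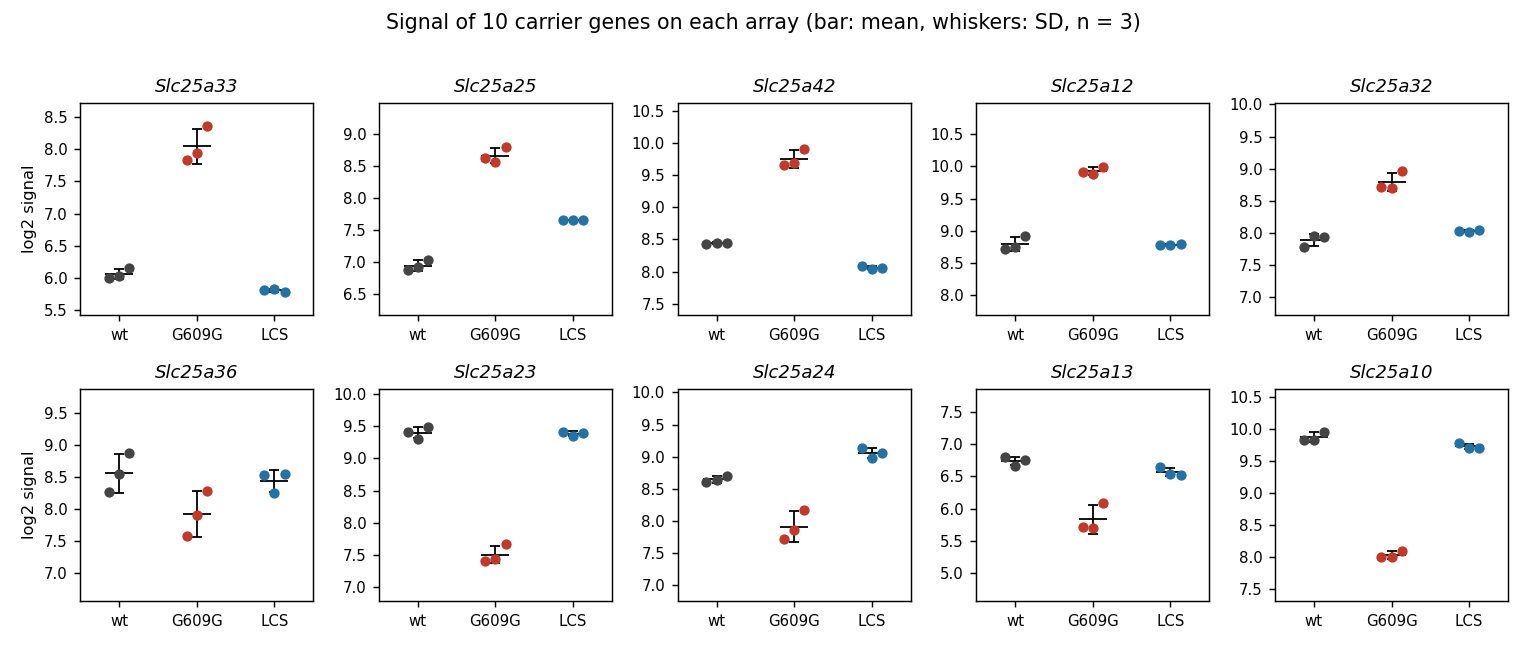
Log2 signal of 10 carrier genes on each of the 9 arrays, 1 panel a gene and every panel spanning the same height in log2 units; points are arrays (wt grey, G609G/G609G red, LCS/LCS blue), bars are means and whiskers the SD of 3 arrays. The red points of Slc25a33 lie at 7.84 to 8.36 above wt at 5.99 to 6.15, while those of Slc25a23 lie at 7.41 to 7.66 below wt at 9.31 to 9.49.

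Of 8 amino acid carriers, 2 were called higher and 1 lower under all 3 scalings, beside 10.2% and 25.5% of all genes. Slc25a12 and Slc25a13 encode the aspartate-glutamate carriers of the malate-aspartate shuttle, known as aralar and citrin, of which Slc25a12 is the main form in muscle and brain and Slc25a13 in liver. Slc25a12 read 8.71, 8.75 and 8.91 in wt, 9.92, 9.88 and 9.99 in G609G/G609G and 8.77, 8.78 and 8.80 in LCS/LCS. It rose by 1.14 ± 0.065 (SE; adjusted p = 2.41e-06), and only the G609G/G609G arrays stood apart. Slc25a13 read 6.80, 6.67 and 6.76 in wt, 5.72, 5.69 and 6.09 in G609G/G609G and 6.64, 6.54 and 6.52 in LCS/LCS. Its change was -0.91 ± 0.107 (SE; adjusted p = 0.000149), opposite to that of its homologue. Slc25a22, a glutamate carrier, read 8.18, 8.22 and 8.33 in wt, 8.60, 8.80 and 8.80 in G609G/G609G and 8.04, 7.91 and 8.03 in LCS/LCS, and rose by 0.49 (adjusted p = 0.000786). Slc25a44, a branched-chain amino acid carrier studied in brown fat, read 8.93, 8.93 and 8.96 in wt, 8.48, 8.47 and 8.74 in G609G/G609G and 9.22, 9.14 and 9.12 in LCS/LCS. Its change of -0.38 was called as deposited (adjusted p = 0.0039), but quantile normalization and median centring each gave 0.05. The ornithine carrier Slc25a15 was called in opposite directions, at -0.26 as deposited and 0.23 after quantile normalization. The basic amino acid carrier Slc25a29 was called at -0.31 as deposited only, and Slc25a2 (-0.19) and the glycine carrier Slc25a38 (0.06) did not pass the test as deposited. Slc25a38 was called higher with quantile normalization (0.58) and median centring (0.48).

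The ADP/ATP carrier Slc25a4, the main form in heart and skeletal muscle, read 10.33, 10.20 and 10.29 in wt, 10.76, 10.81 and 10.89 in G609G/G609G and 10.47, 10.43 and 10.51 in LCS/LCS. It rose by 0.55 ± 0.059 in G609G/G609G (SE; adjusted p = 9.13e-05), with no overlap between genotypes. On those arrays the skeletal muscle sum was 15.14 to 15.19 against 9.70 to 9.86 in wt, and its part in the higher Slc25a4 and Slc25a12 signals was not tested. The phosphate carrier Slc25a3 read 12.28, 12.21 and 12.18 in wt, 12.04, 12.07 and 12.07 in G609G/G609G and 12.19, 12.17 and 12.17 in LCS/LCS. It was called lower as deposited (-0.16, adjusted p = 0.0202) and higher with quantile normalization (0.16) or median centring (0.26), so no direction can be given. Slc25a20, which brings acylcarnitines to the matrix for oxidation, read 8.78, 8.70 and 8.87 in wt, 8.47, 8.60 and 8.84 in G609G/G609G and 9.20, 9.11 and 9.17 in LCS/LCS. The G609G/G609G arrays overlapped wt, at a change of -0.15 (adjusted p = 0.236) as deposited, yet it was called higher with quantile normalization (0.29) or median centring (0.28).

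Of the uncoupling-protein-like carriers, Slc25a30 rose and the other 2 did not pass the test as deposited. Slc25a30 read 8.90, 8.76 and 8.78 in wt, 9.36, 9.38 and 9.43 in G609G/G609G and 9.35, 9.26 and 9.29 in LCS/LCS, so both mutants lay above wt. The increase in G609G/G609G was 0.58 ± 0.058 (SE; adjusted p = 5.61e-05). Slc25a14 and Slc25a27 changed by -0.03 and -0.02 as deposited. Both were called higher with quantile normalization (0.14 and 0.48) and with median centring (0.40 and 0.41). Slc25a14 was dim, below the array median on all 9 arrays. Iron and glutathione carriers gave 2 falls of 4 under all 3 scalings, beside 25.5% of all genes. Slc25a37, mitoferrin 1, which brings iron to the matrix for heme and iron-sulfur clusters, read 7.91, 7.93 and 8.25 in wt, 6.92, 6.74 and 6.98 in G609G/G609G and 7.94, 7.83 and 7.98 in LCS/LCS. It changed by -1.15 ± 0.107 (SE; adjusted p = 3.76e-05), while Slc25a28, mitoferrin 2, changed by -0.07 (adjusted p = 0.472) as deposited. Slc25a28 was called higher with quantile normalization (0.39) and median centring (0.36). Slc25a40 changed by -0.94 and was called under all 3 scalings. Slc25a39, needed for mitochondrial glutathione uptake, was called lower at -0.44 as deposited only.

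Among carriers without a settled place in these groups, the largest fall of all 53 genes was that of Slc25a35. Slc25a35 read 9.16, 9.09 and 9.18 in wt, 6.93, 7.08 and 7.27 in G609G/G609G and 8.88, 8.88 and 8.89 in LCS/LCS. Its change was -2.05 ± 0.084 (SE; adjusted p = 4.04e-07), 4.14-fold lower, and the 3 genotypes did not overlap. Slc25a45 read 6.87, 6.72 and 6.97 in wt, 5.31, 5.63 and 5.24 in G609G/G609G and 7.35, 7.13 and 7.27 in LCS/LCS. It changed by -1.46 ± 0.117 (SE; adjusted p = 1.61e-05), again with separate groups. Slc25a34, a relative of Slc25a35, moved the other way: it read 5.25, 5.37 and 5.21 in wt, 5.95, 5.96 and 5.82 in G609G/G609G and 5.22, 5.26 and 5.40 in LCS/LCS. It rose by 0.63 ± 0.074 (SE; adjusted p = 0.00014). Its wt and LCS/LCS signals lay below the medians of their arrays, where a low signal may be background. Slc25a47 (-0.09), Slc25a48 (-0.10) and Slc25a46 (0.00), an outer membrane protein linked to mitochondrial dynamics, did not pass the test as deposited. Slc25a46 was called higher with quantile normalization (0.39) and median centring (0.42), and Slc25a48 with median centring only (0.325). Slc25a48 was dim, below the array median on all 9 arrays.

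Several pairs of related carriers thus changed unequally. A difference between the changes of 2 genes is not touched by a shift of a whole array, but the pairs were picked after their values were seen, so these are descriptions with no test. In G609G/G609G against wt, the change of Slc25a25 exceeded that of Slc25a23 by 3.61 log2 units and that of Slc25a24 by 2.45. The change of Slc25a33 exceeded that of Slc25a36 by 2.63, that of Slc25a12 exceeded that of Slc25a13 by 2.05, and that of Slc25a28 exceeded that of Slc25a37 by 1.08. In each of these 5 pairs the within-array differences of the G609G/G609G arrays lay outside the range of the wt arrays. That also held for Slc25a42 against Slc25a16 (1.22), Slc25a10 against Slc25a11 (-1.09) and Slc25a30 against Slc25a14 (0.60). It did not hold for Timm17a against Timm17b (0.39), the remaining pair looked at. The share among pairs of other genes was not computed.

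Of the 14 Timm and Tomm genes, 1 was called higher and 8 lower as deposited, beside 10.5% and 53.5% of all genes. Quantile normalization gave 4 and 3, beside 28.5% and 29.5% of all genes, and median centring 3 and 4, beside 43.9% and 27.6%. Under all 3 scalings 1 was higher and 3 were lower, beside 10.2% and 25.5% of all genes. Among the TOM genes, Tomm70a, the receptor that takes carrier precursors from cytosolic chaperones, read 8.43, 8.59 and 8.60 in wt, 7.90, 7.85 and 8.25 in G609G/G609G and 8.50, 8.40 and 8.54 in LCS/LCS. Its change was -0.54 as deposited (adjusted p = 0.00338) and -0.08 after quantile normalization, where it was not called. Tomm7, a small subunit that tunes TOM assembly, read 10.14, 10.04 and 10.27 in wt, 9.78, 9.55 and 10.03 in G609G/G609G and 10.08, 10.22 and 10.18 in LCS/LCS. It was called at -0.36 as deposited (adjusted p = 0.0335), while quantile normalization gave 0.02. Tomm40l, a paralogue of the TOM channel, read 6.43, 6.37 and 6.46 in wt, 5.55, 5.16 and 5.42 in G609G/G609G and 6.89, 6.53 and 6.71 in LCS/LCS. It was the TOM gene that fell under all 3 scalings, by 1.04 as deposited (change -1.04 ± 0.119, SE; adjusted p = 0.000122). Tomm34, a cytosolic co-chaperone rather than a TOM subunit, was called lower at -0.56 as deposited and at -0.14 with median centring, but not after quantile normalization.

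None of the 5 measured TIM23 genes was called in 1 direction under all 3 scalings. Of all genes, 10.2% were called higher and 25.5% lower. Timm17a, a channel subunit, read 9.61, 9.55 and 9.81 in wt, 9.50, 9.51 and 9.69 in G609G/G609G and 10.03, 9.89 and 10.02 in LCS/LCS. The wt and G609G/G609G arrays overlapped, and the change was -0.09 as deposited (adjusted p = 0.429). Timm17a was called higher with quantile normalization (0.31, adjusted p = 0.00336) and median centring (0.335, adjusted p = 0.00238). Timm17b, the other form of that subunit, read 7.28, 7.44 and 7.62 in wt, 6.59, 7.38 and 6.92 in G609G/G609G and 7.44, 6.95 and 7.41 in LCS/LCS. Its change of -0.48 had an SE of 0.213 (adjusted p = 0.0909), with a wide spread between the G609G/G609G arrays. Timm44, which anchors the Hsp70 motor, read 7.35, 7.39 and 7.53 in wt, 6.87, 7.17 and 7.35 in G609G/G609G and 7.45, 7.26 and 7.34 in LCS/LCS. Its change was -0.29 as deposited (adjusted p = 0.0732) and 0.24 after quantile normalization, where it was called higher (adjusted p = 0.0447). Timm50, the presequence receptor, read 8.35, 8.36 and 8.56 in wt, 8.15, 8.17 and 8.03 in G609G/G609G and 8.46, 8.43 and 8.52 in LCS/LCS. It was called at -0.31 as deposited (adjusted p = 0.00798), and quantile normalization gave 0.16. Timm21, which links the TOM and TIM23 complexes, changed by -0.32 with an SD of 0.40 between the G609G/G609G arrays, the widest of the 53 genes in that group.

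On the carrier insertion route, 1 gene fell and 1 rose under all 3 scalings, beside 25.5% and 10.2% of all genes. Timm22, the channel that inserts carriers, read 6.57, 6.37 and 6.78 in wt, 5.58, 5.88 and 5.57 in G609G/G609G and 6.76, 6.43 and 6.44 in LCS/LCS. It fell under all 3 scalings, with a change of -0.90 ± 0.141 (SE; adjusted p = 0.0008) and no overlap with wt. Timm29, its partner subunit, changed by -0.01 as deposited and was called higher with quantile normalization (0.53) and median centring (0.415). Timm9, a small Tim chaperone that escorts carriers across the intermembrane space, read 6.38, 6.44 and 6.44 in wt, 6.72, 6.63 and 6.84 in G609G/G609G and 6.31, 6.27 and 6.36 in LCS/LCS. It rose by 0.31 ± 0.065 (SE; adjusted p = 0.00382) and was the import gene called higher under all 3 scalings. Timm8b, another small chaperone, was called at -0.27 as deposited and not under the other scalings. Timmdc1, which carries the Timm prefix but is known as an assembly factor of respiratory complex I, fell by 0.77 and was called under all 3 scalings.

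**Figure D4:**
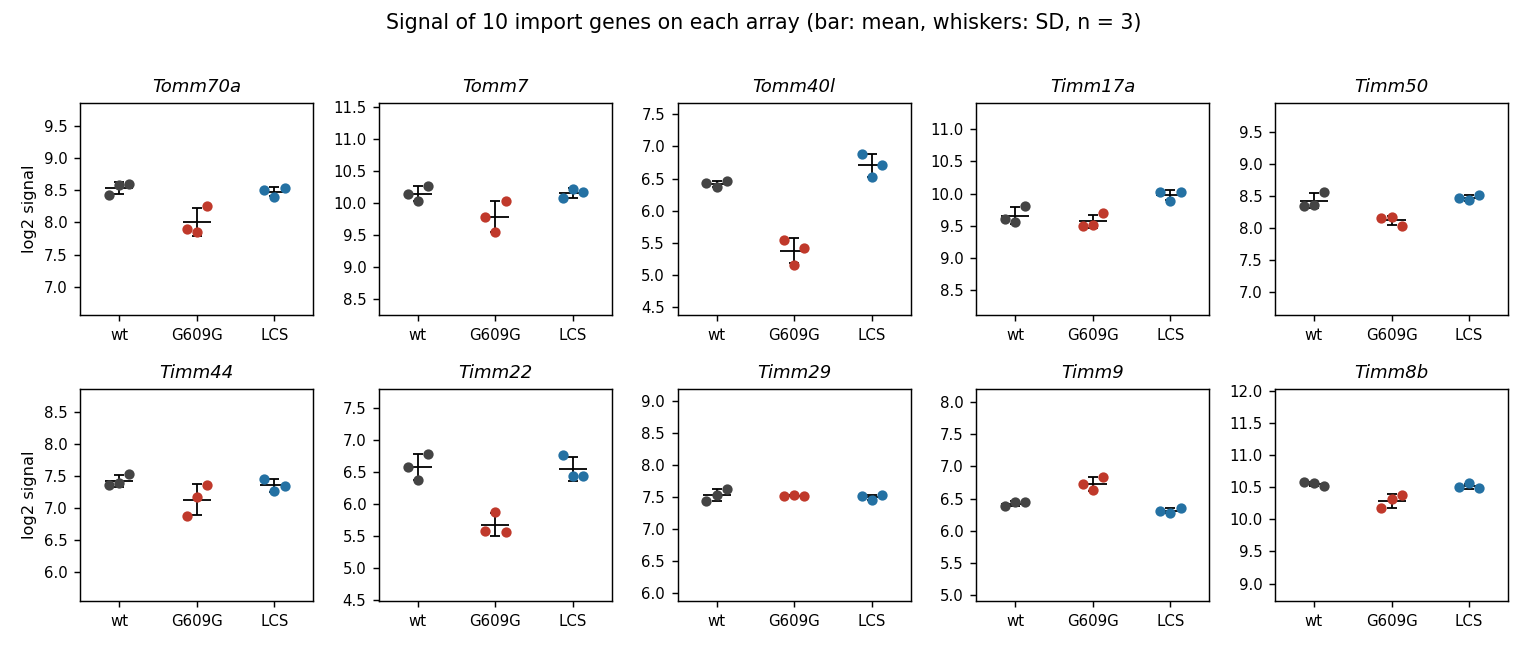
Log2 signal of 10 import genes on each of the 9 arrays, 1 panel a gene and every panel spanning the same height in log2 units; points are arrays (wt grey, G609G/G609G red, LCS/LCS blue), bars are means and whiskers the SD of 3 arrays. Tomm40l and Timm22 lie lower in G609G/G609G, at 5.16 to 5.55 and 5.57 to 5.88, and Timm9 lies higher, at 6.63 to 6.84.

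Partners of the import route and the uncoupling proteins, which belong to the same carrier family under other names, were read alongside. Of 34 listed genes 23 were measured, and 3 were called higher and 11 lower as deposited in G609G/G609G against wt, 9 and 7 with quantile normalization, and 3 and 7 under all 3 scalings. The shares of all genes were 10.5% and 53.5% as deposited, 28.5% and 29.5% with quantile normalization, and 10.2% and 25.5% under all 3. Higher under all 3 were Grpel1, the nucleotide exchange factor of the import motor (0.66, adjusted p = 3.25e-05), Ucp3, the uncoupling protein of skeletal muscle (0.54), and Hspa9, the motor Hsp70 itself (0.20). Among the lower calls, the largest were Ucp1, the uncoupling protein of brown fat (-1.44), Pmpcb, a subunit of the presequence peptidase (-0.89), and Mtx2, an outer membrane assembly protein (-0.78). Ucp1 was thus lower while 4 of 6 brown adipocyte markers were called higher under all 3 scalings and 1, Ucp1 itself, lower. Ucp1 was dim, at 5.53 to 5.68 in wt and 4.04 to 4.31 in G609G/G609G, below every array median. Of the 4 higher markers, Elovl3 and Dio2 were dim too, reading at most 4.81 and 4.88. The skeletal muscle sum was also higher on the G609G/G609G arrays, and its part in the brown adipocyte calls was not tested.

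The second comparison, LCS/LCS against wt, gave few and small changes. As deposited, 8 of 53 genes (15.1%) were called higher and 2 (3.77%) lower, where 12.8% of all genes were called higher and 9.77% lower. After quantile normalization 10 were higher and 7 lower, against 15.4% and 12.2% of all genes, median centring gave 12 and 3, against 20.4% and 9.21%, and under all 3 scalings 7 were higher and 2 lower, against 12.0% and 8.71%. The count of higher calls was 2 without wt replicate 1, without wt replicate 2, or without LCS/LCS replicate 1, 2 or 3, and 5 without wt replicate 3. The count of lower calls was 1 without wt replicate 2 or 3 or any 1 LCS/LCS replicate, and 4 without G609G/G609G replicate 1 or 3, arrays that enter through the shared estimate of the spread. Calls over all 23332 probe sets, in either direction, fell too when a wt or LCS/LCS array was left out. They were 4005 with all 9 arrays, 2834 to 3375 without 1 wt array and 2669 to 3146 without 1 LCS/LCS array. Without G609G/G609G replicate 1 or 3 they were 4092 or 4805. Only Slc25a25 and Slc25a30, both higher, and Slc25a42, lower, were called whichever of the 9 arrays was left out. The groups did not overlap for 26 of the 53 genes (49.1%) and for 43.7% of all genes.

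Slc25a25 had the largest change in LCS/LCS. Its LCS/LCS arrays all read 7.65 against 6.88 to 7.04 in wt, an increase of 0.70 ± 0.073 (SE; adjusted p = 0.000382), 1.63-fold. Slc25a30 rose by 0.49 ± 0.058 (SE; adjusted p = 0.000761). Slc25a42 fell by 0.38 (SE 0.071; adjusted p = 0.00746), and its 3 LCS/LCS arrays lay below all wt arrays. The other calls held under all 3 scalings but were lost when some single arrays were left out. They were Slc25a24 (0.41, adjusted p = 0.0406), Slc25a20 (0.38, adjusted p = 0.0307), Timm17a (0.32, adjusted p = 0.0402), Slc25a28 (0.30, adjusted p = 0.0244), Tomm34 (0.24, adjusted p = 0.0375) and, lower, Slc25a21 (-0.43, adjusted p = 0.0325). Slc25a26 (0.36, adjusted p = 0.0227) was called as deposited and after median centring only. For each of these genes the LCS/LCS and wt arrays did not overlap.

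Of the carboxylate carriers, Slc25a10 and Slc25a11 both changed by -0.14 as deposited in LCS/LCS, and neither passed the test there (adjusted p = 0.161 and 0.126). They were called lower after quantile normalization, at -0.20 and -0.21. Slc25a1 changed by -0.04, and Slc25a4 by 0.20 (adjusted p = 0.058). Of the 23 related genes, Ucp3 rose by 0.83 and Ucp1 fell by 1.60 under all 3 scalings, and Vdac2, a pore of the outer membrane, was called lower at -0.21 as deposited (adjusted p = 0.0495) but not after median centring. Ucp1 was dim, at 5.53 to 5.68 in wt and 3.97 to 4.12 in LCS/LCS. On these arrays 2 of the 9 measured muscle markers were called higher under all 3 scalings, among them Acta1, skeletal muscle actin, by 1.51, and the part of muscle in the results was not tested.

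Set side by side, the changes of the 2 mutants against wt share the wt arrays. Slc25a25 changed by 1.71 in G609G/G609G and 0.70 in LCS/LCS, Slc25a30 by 0.58 and 0.49, and Slc25a21 by -1.45 and -0.43. Slc25a42 moved in opposite directions, by 1.31 and -0.38, as did Slc25a24, by -0.74 and 0.41. Each of these changes was called under all 3 scalings.

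The third comparison set the mutants against each other and tests those differences directly. Under all 3 scalings 10 of 53 genes (18.9%) were called higher in G609G/G609G than in LCS/LCS and 17 (32.1%) lower, where all genes gave 10.9% and 26.2%. As deposited the counts were 10 and 28, against 11.3% and 51.1% of all genes (62.3% together). Quantile normalization gave 18 and 17, against 27.8% and 29.5%, and median centring 20 and 18, against 41.5% and 30.6%. The groups did not overlap for 41 genes (77.4%) and for 69.6% of all genes. The median change of the 53 genes was -0.35 as deposited and 0.05 after quantile normalization.

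The highest changes were those of Slc25a33 and Slc25a42. Slc25a33 was higher in G609G/G609G by 2.24 ± 0.125 (SE; adjusted p = 1.74e-06), 4.73-fold, and Slc25a42 by 1.69 ± 0.071 (SE; adjusted p = 3.57e-07). Slc25a12 was higher by 1.15, Slc25a25 by 1.01, Slc25a32 by 0.76 and Slc25a22 by 0.74, all called under all 3 scalings. Slc25a30 differed by 0.09 (adjusted p = 0.228) as deposited and was called higher after quantile normalization, at 0.54. Lower in G609G/G609G were Slc25a23 (-1.88), Slc25a45 (-1.86), Slc25a35 (-1.79), Slc25a10 (-1.69), Tomm40l (-1.33) and Slc25a24 (-1.14), each called under all 3 scalings. All 4 carboxylate carriers were called lower under all 3 scalings, with changes from -1.69 to -0.61 as deposited. Of the 14 Timm and Tomm genes, 1 was higher and 4 lower under all 3 scalings, beside 10.9% and 26.2% of all genes. They were Timm9 (0.42) and, lower, Tomm40l, Timm22, Tomm34 and Timmdc1. Of the 23 related genes, 3 were higher and 6 lower under all 3 scalings, beside 10.9% and 26.2% of all genes. Grpel1 (0.48), Hspa9 (0.27) and the outer membrane pore Vdac1 (0.15) were higher. Trap1, a matrix chaperone of the Hsp90 family, was lower (-0.83), as was Pmpcb (-0.81), while Chchd4 of the disulfide relay (-0.80) was called as deposited but not under all 3 scalings.

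The 53 genes were measured about as evenly as others. Their median SD between the 3 arrays of a group was 0.0794 for wt, 0.0600 for LCS/LCS and 0.131 for G609G/G609G. The medians over all genes were 0.0757, 0.0608 and 0.110. Every one of the 10 genes called higher in G609G/G609G against wt as deposited was still called with any 1 of the 9 arrays left out, and so were 23 of the 27 called lower. The other 4 were Slc25a3, Slc25a15, Slc25a36 and Tomm7, none of which held under all 3 scalings. The share of calls kept in this way among all genes was not computed.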

How the data were processed

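The authors deposited 1 log2 signal for each probe set and array, from Affymetrix exon arrays summarised by gene; the log2 scale was read from their range, 2.46 to 13.84. Per the labels' protocols, biotin-labelled total RNA of frozen, powdered fat was hybridised. The authors' background correction and array scaling were not given in the sources used here. Genome build mm9 is named in the submitters' processing notes. There are no detection calls, so a low signal may be background. Slc25a2, Slc25a14, Slc25a41 and Slc25a48 lay below the array median on all 9 arrays.

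The titles of the samples gave genotype and replicate number. Of 23332 probe sets, 14996 had 1 gene symbol in the platform annotation, 1019 several and 7317 were not listed. The brightest probe set stood for each of 14860 genes. Tests used limma 3.58.1 (R 4.3.3), fitting the 9 arrays together with 3 genotype means, 6 residual degrees of freedom, empirical Bayes moderation, two-sided, with Benjamini-Hochberg adjustment over all 23332 probe sets, tested on simulated data. The study's own criterion, a t-test with a fold of at least 1.5, other scalings, moderation settings, filters and leaving out each array were alternatives. Values on all 9 arrays are given for the 6 strongest increases and 6 strongest decreases called in a comparison with non-overlapping groups, and for 17 preset genes that were measured. Of the related genes, the 3 largest called changes in each direction were named. The other members are given by their change. Members, lists and rules were chosen with earlier results of these data known. A planned comparison of Slc25a4 with Slc25a5 was not run, since no probe set names Slc25a5 alone.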

Additional observations from a re-analysis of the deposited data

How the results depend on the processing

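Counts are given as higher and lower calls among the 53 genes. Under quantile normalization they were 22 and 15 in G609G/G609G against wt, 10 and 7 in LCS/LCS against wt, and 18 and 17 in G609G/G609G against LCS/LCS. Median centring gave 22 and 16, 12 and 3, and 20 and 18. The median change was -0.29, -0.02 and -0.35 as deposited. It turned to 0.11 (quantile) and 0.13 (median centring) in the first comparison, to 0.035 (median centring) in the second, and to 0.053 and 0.02 in the third. The methods' t-test with a fold of at least 1.5 called 6 and 15, 1 and 0, and 7 and 18, both at raw p and after Benjamini-Hochberg. Limma with that fold gave 6 and 16, 1 and 0, and 7 and 18. Lower calls in LCS/LCS against wt, 2 in the report, were 4 with only the 2 genotypes fitted, 5 with trended moderation, 6 with array weights and 4 without the dimmest 50% of probe sets. For the t-test, the fold and these settings the shares of all genes were not computed, so these counts cannot be set against genes in general. With 1 array left out, the counts ranged from 10 to 10 and 23 to 29 in the first comparison, 2 to 12 and 1 to 4 in the second, and 10 to 11 and 25 to 30 in the third. The median changes ranged from -0.33 to -0.21, -0.03 to 0.03 and -0.385 to -0.33.

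Signs turned for the named genes as follows, counting uncalled values too. In G609G/G609G against wt, quantile normalization and median centring gave Slc25a20 0.29 and 0.28, Slc25a3 0.16 and 0.26, Slc25a44 0.0511 and 0.0483, Tomm7 0.0224 and 0.0617, Timm17a 0.31 and 0.335, Timm44 0.24 and 0.13, and Timm50 0.16 and 0.12, and quantile normalization gave Timm17b 0.0481. Against LCS/LCS, they gave Slc25a3 0.23 and 0.26, Timm17b 0.22 and 0.07, Timm44 0.30 and 0.15, and Timm50 0.16 and 0.02, and quantile normalization gave Tomm70a 0.0263, Tomm7 0.0931 and Timm17a 0.047. In LCS/LCS against wt, uncalled values near 0 turned. Median centring gave Slc25a1 0.0083, Slc25a3 0.005, Slc25a12 0.045 and Timm22 0.0217, quantile normalization gave Tomm7 -0.0707 and Timm22 0.0096, and array weights gave Slc25a12 0.0371 and Timm22 0.0124. With 1 array left out, Slc25a12 ranged from -0.0467 to 0.0533, Tomm7 from -0.045 to 0.07 and Timm22 from -0.1383 to 0.0733. The deposited scaling differs between arrays, and which scaling is right was not tested. Over 77 named results, 1436 of 1615 values kept sign and side of the threshold, 117 lost the call, 22 gained one and 40 turned in sign.

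With the replicate number as a block, no call of the first comparison changed, 1 was lost in LCS/LCS against wt and 2 were gained in G609G/G609G against LCS/LCS. Same-numbered arrays correlated at -0.0707 to 0.23 in their deviations from the group means, over 0.1 in 2 of 9 pairs. Other-numbered arrays correlated at -0.168 to 0.12, over 0.1 in 1 of 18 pairs. Between wt and G609G/G609G the same-numbered pairs gave 0.11, 0.08 and 0.23. So few pairs cannot show whether a replicate number marks anything shared. No gene had more than 1 probe set, so the choice of probe set could not be varied.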
